A study of Mus musculus with 6 samples.

Results

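The genes described here are 9 adhesion genes of the neutrophil surface, chosen by name from the 29097 genes of the deposited table: the integrin chains *Itgam*, *Itgb2*, *Itgal*, *Itgax*, *Itga4* and *Itgb1*, the selectin ligand *Selplg*, the hyaluronan receptor *Cd44* and the integrin ligand *Icam1*. The rule that picks them uses names and no measured value, though it was written with earlier results of these data known, and all 9 were among the 10440 genes tested. *Itgam* encodes CD11b, which was also a sorting marker of the cells.

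Libraries were made from peripheral blood (PB) neutrophils of wild-type C57BL/6 males aged 8 weeks, sorted as CD45+CD11b+Ly6G+ cells after lysis of red cells. In ligature-induced periodontitis (LIP), silk was tied around the second molars of both jaws for 14 d, and Ctrl mice stayed unligated for the same time. Each of the 3 libraries of a group was a pool of cells from 5 mice, so that p-values measure the spread between pools and not between single mice. Smart-seq2 was used, in which poly(A) RNA is copied at full length and amplified by PCR without molecular identifiers. The libraries also held transcripts of other blood cells, in amounts that differed between groups: in Ctrl, erythroid markers had a summed FPKM of 180637 to 186840, above the 16386 to 19720 of the mature neutrophil markers, and the marker lists are given in full after the genes.

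Circulating neutrophils leave the blood in steps. Selectins on the vessel wall catch ligands such as PSGL-1, the product of *Selplg*, and the cell rolls. Integrins, which are pairs of an alpha and a beta chain, then switch to a high-affinity form and hold the cell by binding ICAM-1 and other ligands. The beta chain of *Itgb2* (CD18) joins with CD11a, CD11b or CD11c to give LFA-1, Mac-1 and CD11c/CD18, and the chain of *Itgb1* joins with that of *Itga4* to give VLA-4, a receptor for VCAM-1 and fibronectin.

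Of the 9 genes, 8 were higher in LIP than in Ctrl, 0 were lower and 1, *Itga4*, was not called (edgeR quasi-likelihood test, adjusted p under 0.05). Of all genes tested, 26.5% were called higher and 27.2% lower. The largest rises were those of *Itgam* (3.35-fold), *Selplg* (3.05-fold), *Itgb2* (2.75-fold) and *Cd44* (2.68-fold), and *Icam1* rose least (1.32-fold). The median log2 fold change of the 9 was 1.29, beside -0.09 for all genes tested, and the genes ranked between the percentiles 55.2 (*Itga4*) and 96.3 (*Itgam*) of all log2 fold changes. In 8 of 9 genes, every LIP library lay above every Ctrl library in CPM (counts scaled to library size with TMM factors), as did 30.3% of all genes. These directions depended on how libraries were scaled to each other. Scaling on 20 mature neutrophil genes gave 0 higher and 8 lower, with 0.345% of all genes higher, 90.1% lower and a median of -2.01 for all genes. Library totals without erythroid genes gave 6 higher and 1 lower, where 13.9% of all genes were higher and 49.1% lower. Unadjusted library totals gave 7 higher and 0 lower, against 18.4% and 39.7% of all genes. Relative to the median of all genes, 9 of 9 genes were above it under TMM and under these 3 scalings. A rescaling moves the genes and the median nearly alike, so that these counts are not separate results. Among genes that averaged 5 FPKM or more, 8 of the 9 were above the median.

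**Figure D1:**
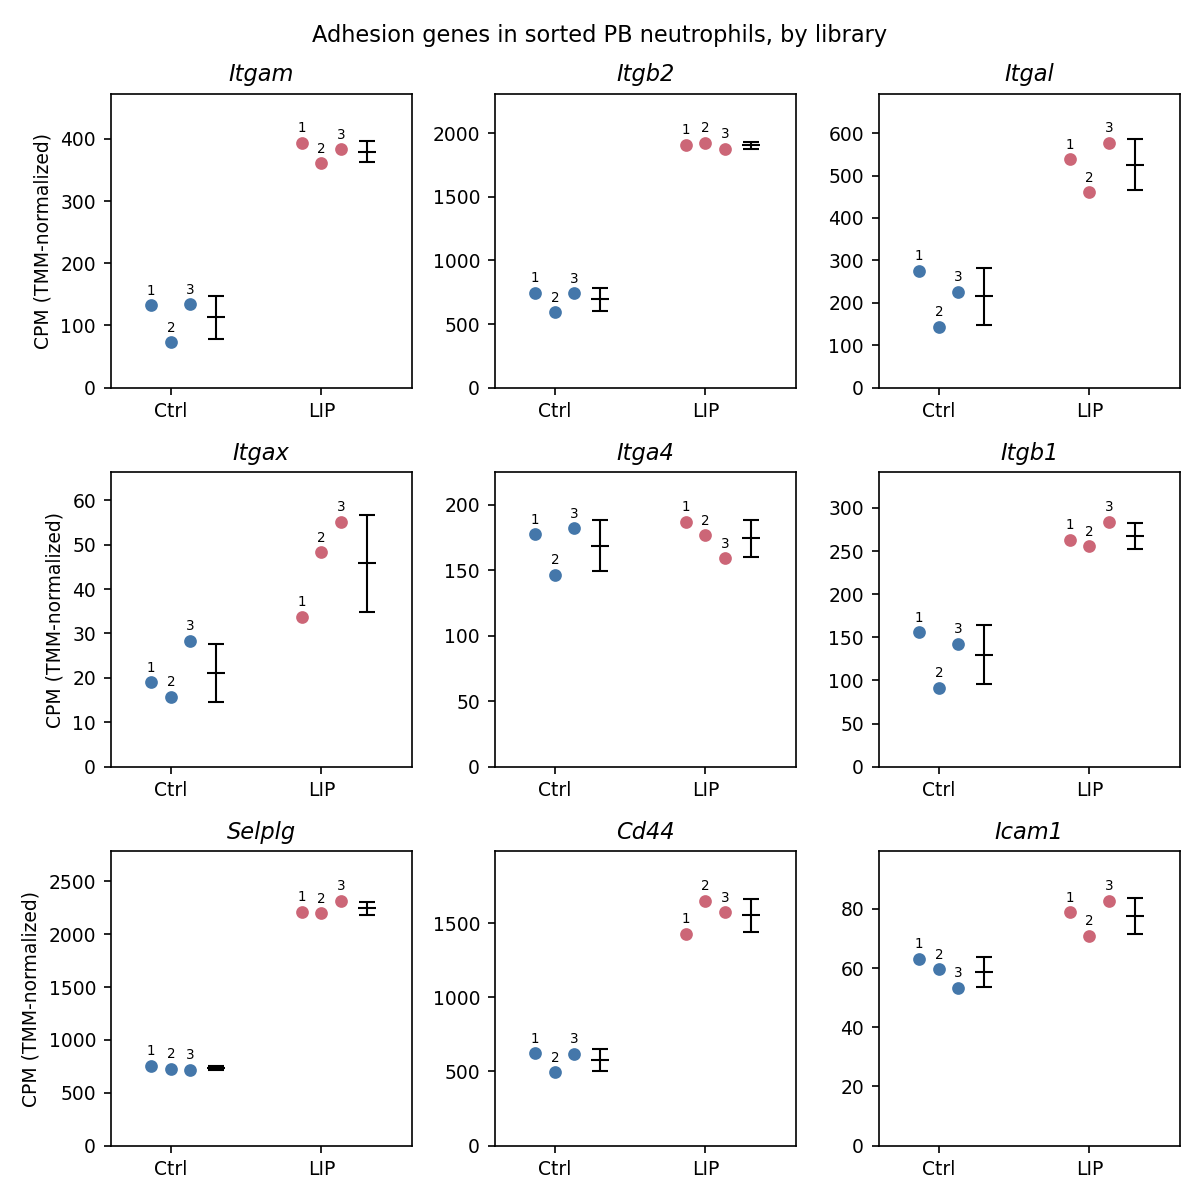
TMM-normalized CPM of each of the 9 genes (vertical axes, starting at 0) in the 3 Ctrl and 3 LIP libraries, numbered by replicate; the bar beside the points is the mean with SD (n = 3). LIP points lie above Ctrl points in every panel but that of *Itga4*.

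Among the beta2 integrin chains, *Itgam* (ENSMUSG00000030786, GRCm38 chr7:128062640-128118491, plus strand) gave 132, 73.5 and 134 CPM in Ctrl libraries 1, 2 and 3 and 394, 361 and 383 CPM in LIP libraries 1, 2 and 3. Groups were far apart, and Ctrl 2 was the low library within its group, at 55.1% of the mean of the other Ctrl libraries. Means were 113 ± 34.6 CPM for Ctrl and 379.6 ± 16.8 CPM for LIP (SD, n = 3), a log2 fold change of 1.74 ± 0.201 (SE, edgeR adjusted p = 4.39e-05). Leaving out Ctrl 2 lowered it to 1.53. Because CD11b was used to gate the cells, both groups had been selected for its protein.

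Reads of *Itgam* could not be fully separated from those of *Gm49368*, an annotated gene on the same strand whose span covers 55809 bp of *Itgam*. It received 324, 1019 and 575 counts in Ctrl libraries and 1399, 1346 and 1159 in LIP libraries. *Itgam* itself received 7956, 4400 and 7848 counts in Ctrl libraries and 19801, 18425 and 18102 in LIP libraries. Ctrl 2 was thus the Ctrl library with the fewest *Itgam* counts and the most *Gm49368* counts. With the reads of both genes added, a comparison chosen after seeing the data, the log2 fold change of *Itgam* was 1.71.

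*Itgb2* (ENSMUSG00000000290, chr10:77530252-77565686, plus strand), the shared beta chain, gave 745, 593 and 743 CPM in Ctrl and 1910.1, 1927 and 1877 CPM in LIP. The LIP libraries were nearly level, and all stood well above Ctrl. Its log2 fold change was 1.46 ± 0.0990 (SE, edgeR adjusted p = 1.24e-06). *Itgal* (ENSMUSG00000030830, chr7:127296260-127335138, plus strand), which encodes the CD11a chain of LFA-1, gave 276, 144 and 226 CPM in Ctrl and 538, 460.3 and 578 CPM in LIP. Here too Ctrl 2 was lowest and the groups were separate. The log2 fold change of *Itgal* was 1.29 ± 0.202 (SE, edgeR adjusted p = 0.000385), and 1.08 without Ctrl 2.

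*Itgax* (ENSMUSG00000030789, chr7:128129547-128150657, plus strand) lies 11056 bp beyond the end of *Itgam* and encodes CD11c, best known from dendritic cells. It gave 19.0, 15.8 and 28.4 CPM in Ctrl and 33.8, 48.3 and 55.2 CPM in LIP, and its FPKM was the lowest of the 9 genes in both groups. The groups did not overlap in CPM, but Ctrl 3 and LIP 1 came close. On the FPKM scale, which is scaled to library totals, they crossed, with 6.07 FPKM in Ctrl 3 and 5.82 FPKM in LIP 1. Its log2 fold change in CPM was 1.12 ± 0.255 (SE, edgeR adjusted p = 0.00397), and the call was lost with library totals without erythroid genes (edgeR adjusted p = 0.0702). Summed FPKM of the monocyte and dendritic cell markers lay between 771 and 812 in Ctrl and between 902 and 972 in LIP, with 9 of 10 tested markers higher and 0 lower. *Clec9a* and *Xcr1*, which define a class of dendritic cells, stayed at or below 0.535 and 0.484 FPKM in all 6 libraries. The part of these cells in the result was not tested.

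The promoters are shown for *Itgam* and *Itgax*, neighbours that both rose, for *Itga4*, which was not called, and for *Icam1*, which rose least. Sequences are from RefSeq (GRCm38.p6), which had an entry for 6 of the 9 genes and none here for *Itgb2*, *Itgal* and *Selplg*. Each run is the 250 bases before the RefSeq start, 5′ to 3′ on the gene's strand, at chr7:128062390-128062639, chr7:128129300-128129549, chr2:79255176-79255425 and chr9:21015690-21015939, all on the plus strand. Capitals mark matches on either strand to GAGGAA (the core bound by PU.1), GGGCGG (the GC box of Sp1), GGAAATTCC (a form of the NF-kB site) or TATAAA (the TATA box), motifs chosen with the sequences in view.
Itgam: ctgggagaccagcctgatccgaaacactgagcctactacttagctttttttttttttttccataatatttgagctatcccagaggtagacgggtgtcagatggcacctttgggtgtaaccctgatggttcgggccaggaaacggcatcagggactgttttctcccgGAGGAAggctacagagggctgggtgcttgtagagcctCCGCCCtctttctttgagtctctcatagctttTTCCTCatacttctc
Itgax: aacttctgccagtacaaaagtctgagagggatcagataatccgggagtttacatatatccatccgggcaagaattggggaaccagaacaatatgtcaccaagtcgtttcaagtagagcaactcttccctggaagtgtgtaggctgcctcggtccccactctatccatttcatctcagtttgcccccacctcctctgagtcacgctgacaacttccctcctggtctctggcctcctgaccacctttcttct
Itga4: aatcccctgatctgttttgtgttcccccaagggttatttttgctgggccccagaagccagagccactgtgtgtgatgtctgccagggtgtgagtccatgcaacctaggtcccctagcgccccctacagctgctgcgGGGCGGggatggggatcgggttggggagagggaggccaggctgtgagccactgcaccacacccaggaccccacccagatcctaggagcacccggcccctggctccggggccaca
Icam1: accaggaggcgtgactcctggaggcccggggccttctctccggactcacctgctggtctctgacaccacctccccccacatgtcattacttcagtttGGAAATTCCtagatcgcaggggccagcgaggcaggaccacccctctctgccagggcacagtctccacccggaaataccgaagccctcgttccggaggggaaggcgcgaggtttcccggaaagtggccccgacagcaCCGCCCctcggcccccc

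GAGGAA was present in the promoters of *Itgam*, *Itgb1* and *Cd44* and in 23.3% of all 32851 promoter windows of this length. In *Itgam* it began at position -84 relative to the start, with a reverse match at -15. GGGCGG was present in *Itgam*, *Itga4*, *Itgb1* and *Icam1* and in 32.7% of all windows. GGAAATTCC was present in *Icam1* alone of the 6, at position -153, and in 0.286% of all windows (94 in all). TATAAA was in none of the 6 and in 12.4% of all windows. The *Itgax* window held no match to any of the 4 motifs. A match is a stretch of letters, and factor binding was not measured in these libraries.

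The chains of VLA-4 did not move together. *Itga4* (ENSMUSG00000027009, chr2:79255426-79333123, plus strand) gave 178, 146 and 182 CPM in Ctrl and 187, 177 and 159 CPM in LIP, ranges that overlap almost wholly. Its log2 fold change was 0.05, with a 95% interval from -0.22 to 0.32 under TMM scaling (edgeR adjusted p = 0.762). On FPKM the order turned, with 13.3, 10.6 and 13.4 in Ctrl and 11.1, 10.6 and 9.51 in LIP. With library totals without erythroid genes *Itga4* was called lower (log2 fold change -0.49, edgeR adjusted p = 0.00622), and with scaling on mature neutrophil genes it was at -1.87, where the median of all genes was -2.01.

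*Itgb1* (ENSMUSG00000025809, chr8:128685654-128733200, plus strand), the beta chain that many alpha chains share, gave 156, 91.5 and 143 CPM in Ctrl and 263, 256 and 284 CPM in LIP. All LIP libraries were above all Ctrl libraries, and Ctrl 2 was again lowest. The log2 fold change was 1.04 ± 0.176 (SE, edgeR adjusted p = 0.000617), and 0.86 without Ctrl 2.

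Ratios of alpha to beta chain within a library do not depend on the scaling between libraries. They can still differ with the mix of cells in a library. B cell and T cell markers were lower in LIP and platelet markers higher, and the part of these cells in the ratios was not tested. *Itga4* over *Itgb1*, on FPKM, was 0.333, 0.467 and 0.372 in Ctrl and 0.208, 0.201 and 0.163 in LIP. The groups did not overlap, and the log2 ratio was lower by a difference of -1.03 in LIP (two-sided exact permutation test, p = 0.1, adjusted p = 0.2 over 4 ratios). The smallest p that 3 libraries against 3 allow is 0.1. *Itgam* over *Itgb2* was 0.108, 0.0752 and 0.110 in Ctrl and 0.125, 0.114 and 0.124 in LIP, again without overlap (log2 difference 0.33, exact p = 0.1, adjusted p = 0.2). That difference fell to 0.15 without Ctrl 2. For *Itgal* over *Itgb2* (0.142 ± 0.0299 in Ctrl and 0.128 ± 0.0162 in LIP, SD, n = 3, exact permutation p = 0.5) and for *Itgax* over *Itgb2* (0.0191 ± 0.00446 and 0.0153 ± 0.00377, exact permutation p = 0.4), the groups overlapped.

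**Figure D2:**
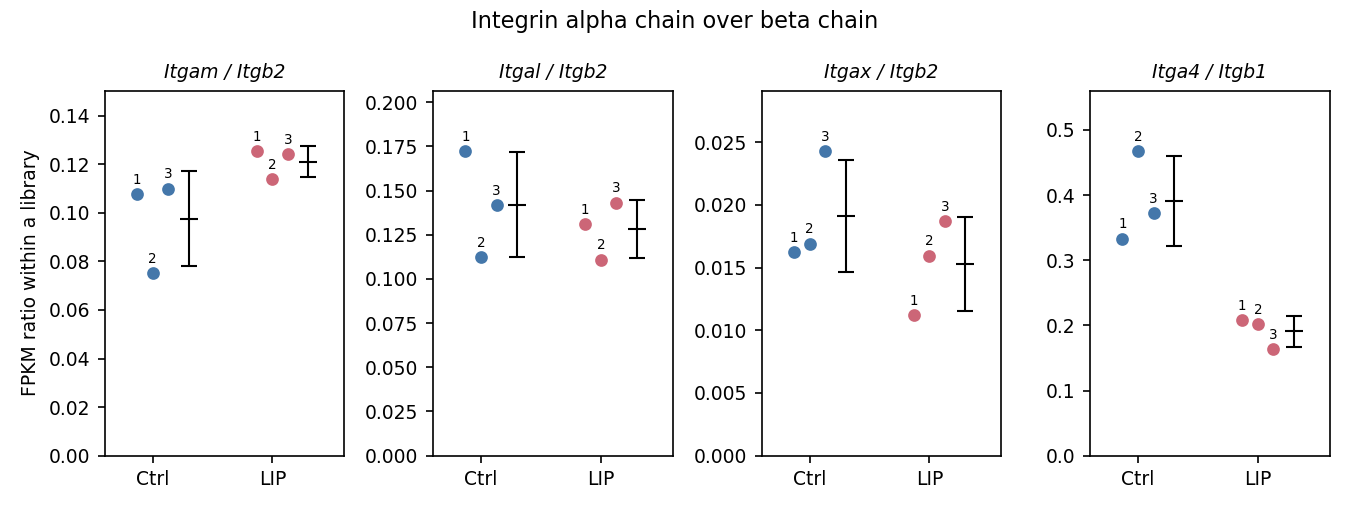
FPKM of an alpha chain over FPKM of its beta chain in each library (vertical axes, starting at 0), numbered by replicate, with mean and SD (n = 3) beside the points. *Itga4* over *Itgb1* lies at 0.333 or more in Ctrl and at 0.208 or less in LIP, and the ratios of *Itgal* and *Itgax* to *Itgb2* overlap. The libraries also held transcripts of other blood cells, whose part in the ratios was not tested.

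Of the genes for ligands and receptors outside the integrins, *Selplg* (ENSMUSG00000048163, chr5:113818536-113830501, minus strand) gave 758, 729.5 and 719 CPM in Ctrl and 2216, 2198 and 2319.8 CPM in LIP. Libraries within a group were close, and the groups were widely apart. Its log2 fold change of 1.61 ± 0.0736 had the smallest SE of the 9 (edgeR adjusted p = 1.44e-07). *Cd44* (ENSMUSG00000005087, chr2:102811141-102901665, minus strand), whose product binds hyaluronan and E-selectin, gave 624, 495 and 619 CPM in Ctrl and 1429, 1652 and 1575 CPM in LIP. Again every LIP library was above every Ctrl library. The log2 fold change was 1.42 ± 0.108 (SE, edgeR adjusted p = 2.35e-06).

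*Icam1* (ENSMUSG00000037405, chr9:21015985-21028817, plus strand), which encodes a ligand of LFA-1 and Mac-1 and is best known from endothelium, gave 63.2, 59.7 and 53.3 CPM in Ctrl and 78.8, 71.0 and 82.8 CPM in LIP. The groups did not overlap in CPM, but the gap between Ctrl 1 and LIP 2 was small. Its log2 fold change was 0.40 ± 0.129, with a 95% interval from 0.12 to 0.69 (edgeR adjusted p = 0.0231). This call was lost when Ctrl 3, LIP 1 or LIP 3 was left out (edgeR adjusted p = 0.101, 0.0576 and 0.0862) and with library totals as the scale (0.614). It was also lost with totals without erythroid genes and among genes averaging 5 FPKM or more (edgeR adjusted p = 0.396 and 0.123). Limma on log2(FPKM + 1) and log2(FPKM + 0.1) did not call it either (limma adjusted p = 0.600 and 0.601). With scaling on mature neutrophil genes it was called lower (-1.51, edgeR adjusted p = 1.13e-05), where the median of all genes was -2.01. On FPKM the values overlapped, at 15.2, 13.9 and 12.6 in Ctrl and 14.97, 13.6 and 15.9 in LIP.

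**Figure D3:**
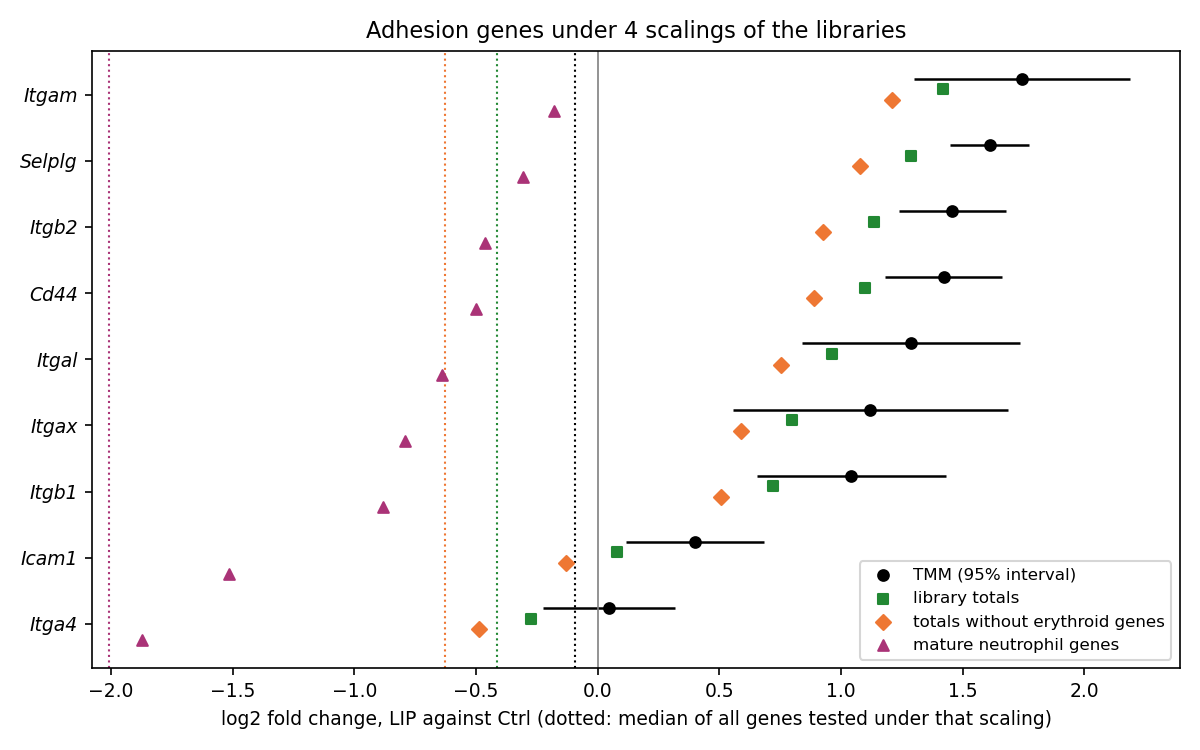
Log2 fold change of LIP against Ctrl (horizontal axis) for each gene under 4 scalings of the libraries; bars are 95% intervals of the TMM fit, and dotted lines are the median of all genes tested under each scaling. All 9 genes lie to the right of the dotted line of their own scaling, a placing that a rescaling leaves nearly unchanged. Under scaling on mature neutrophil genes all 9 are below 0, *Itgam* nearest to it at -0.18.

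Per length, *Itgb2* was the most abundant transcript in both groups, with 235 ± 32.4 FPKM in Ctrl and 520.1 ± 6.996 FPKM in LIP (SD, n = 3). *Selplg* (178 and 438 FPKM) and *Cd44* (88.3 and 191 FPKM) came next, and neither overlapped its neighbours in level. In Ctrl, *Itgal* (33.9 FPKM), *Itgb1* (32.9), *Itgam* (23.3), *Icam1* (13.9) and *Itga4* (12.5) formed a run in which each neighbouring pair overlapped, and *Itgax* (4.52) was below it. In LIP, *Itgal* (66.6 FPKM) and *Itgam* (62.9) overlapped, *Itgb1* (54.7) and *Icam1* (14.8) stood apart from their neighbours, and *Itga4* (10.4) and *Itgax* (7.94) overlapped. *Itgam* was above *Itgb1* in LIP and below it in Ctrl.

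Spread between libraries was not equal between the groups. The coefficient of variation in CPM was larger in Ctrl for 8 of the 9 genes, with a median of 12.7% in Ctrl and 7.29% in LIP, beside 16.1% and 16.5% over all genes tested. Ctrl 2 was the lowest Ctrl library for 7 of 9 genes and for 37.7% of all genes. Relative to the mean of the other Ctrl libraries it stood at 55.1% for *Itgam*, 57.1% for *Itgal*, 61.3% for *Itgb1* and 66.6% for *Itgax*, but at 98.8% for *Selplg* and 102% for *Icam1*. Across all genes, its log2 difference from the other Ctrl libraries had a median of 0.20 in the shortest sixth of genes by length and -0.19 in the longest, and the part of transcript length in the low values was not tested.

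Among genes that averaged 10 FPKM or more, the 3 with the centred log2(FPKM + 1) profile over the 6 libraries nearest to that of *Itgam* were named. They were *Gm23722*, *Nlrp12* and *Slc2a3* (Euclidean distances 0.142, 0.175 and 0.180). *Gm23722* is a small RNA gene that overlaps *Rnf149* on the same strand, *Nlrp12* a NOD-like receptor gene and *Slc2a3* a glucose transporter gene. *Gm23722* gave only 2.79, 1.42 and 2.83 CPM in Ctrl and 7.44, 7.20 and 7.75 CPM in LIP. *Nlrp12* gave 54.7, 27.5 and 54.7 CPM in Ctrl and 164, 175 and 177 CPM in LIP. *Slc2a3* gave 189.8, 105 and 176 CPM in Ctrl and 503, 519 and 499 CPM in LIP. All 3 had a low Ctrl 2 and LIP libraries that were close to each other, a likeness that follows from choosing them by closeness to *Itgam*.

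Other genes of adhesion were counted in 4 lists by function, 118 genes of which 114 were listed and 86 tested. Of these, 51 were higher in LIP and 9 lower (59.3% and 10.5% of those tested, median log2 fold change 0.81), beside 26.5% and 27.2% of all genes. With library totals without erythroid genes the counts became 33 and 25, beside 13.9% and 49.1% of all genes. Scaling on mature neutrophil genes gave 0 and 71, beside 0.345% and 90.1% of all genes. Of the integrin subunits outside the 9, 6 of 9 tested were higher and 1 lower, against 3 and 1 without erythroid genes and 0 and 8 with scaling on mature neutrophil genes. *Itga2b*, the alpha chain of the platelet fibrinogen receptor, gave 176, 139 and 202 CPM in Ctrl and 436, 435 and 532 CPM in LIP (log2 fold change 1.44 ± 0.147). *Itgb3*, its partner, rose by 1.23 ± 0.230 and *Itgb5*, a partner of the alphaV chain, by 1.53 ± 0.272 (SE, log2 scale). Platelet and megakaryocyte markers moved with them: 10 of 10 were higher, and their summed FPKM was between 840 and 1080 in Ctrl and between 1757 and 2058 in LIP. Their part in the rise of *Itga2b* and *Itgb3* was not tested. The single subunit that fell, *Itgb7*, the other beta chain that pairs with that of *Itga4*, changed by -0.53 ± 0.102 (edgeR adjusted p = 0.00156). It is named after its values were seen, as are the other genes that fell except *Cd2*.

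Of 29 tested genes that activate integrins or link them to actin, 17 were higher and 2 lower (58.6% and 6.90%, beside 26.5% and 27.2% of all genes), and the median log2 fold change was 0.62. The counts were 12 and 8 with library totals without erythroid genes, beside 13.9% and 49.1% of all genes. With scaling on mature neutrophil genes they were 0 and 26, beside 0.345% and 90.1% of all genes. *Zyx*, which encodes the focal adhesion protein zyxin, gave 581, 517 and 551 CPM in Ctrl and 1966, 1664 and 1992 CPM in LIP (log2 fold change 1.77 ± 0.0953). *Pxn*, for the adaptor paxillin, rose by 1.69 ± 0.150, and *Skap2*, an adaptor that acts in activation of beta2 integrins, by 1.55 ± 0.0991. *Zyx* and *Pxn* overlap other transcribed genes, *Epha1* on the opposite strand and *Gm13840* on the same strand, so that their counts are uncertain there. The 2 that fell were *Skap1* (-1.26) and *Rhoh* (-1.69), both best known from lymphocytes.

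Among the selectins and the genes that build or shed their ligands, 12 of 24 tested were higher and 1 lower, beside 26.5% and 27.2% of all genes, and the median log2 fold change was 0.37. They became 8 and 8 with library totals without erythroid genes, beside 13.9% and 49.1% of all genes. With scaling on mature neutrophil genes they were 0 and 18, beside 0.345% and 90.1% of all genes. *St3gal4* and *St3gal6*, sialyltransferases that act on selectin ligands, rose by 1.80 ± 0.132 and 1.11 ± 0.117 (SE, log2 scale). *St3gal4* overlaps *4930581F22Rik* on the opposite strand. *Tpst1*, a tyrosine sulfotransferase, was the gene that fell (-2.14 ± 0.224). *Tpst2*, of the same enzyme family and also named after its values were seen, was called higher (0.32 ± 0.121, edgeR adjusted p = 0.0447). It averaged 43.9 FPKM, beside 8.48 for *Tpst1*.

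Of immunoglobulin-fold and other adhesion molecules, 16 of 24 tested were higher and 5 lower (66.7% and 20.8%, beside 26.5% and 27.2% of all genes), and the median log2 fold change was 0.98. Library totals without erythroid genes gave 10 and 8, beside 13.9% and 49.1% of all genes. Scaling on mature neutrophil genes gave 0 and 19, beside 0.345% and 90.1% of all genes. *Jaml*, a junctional adhesion molecule of leukocytes, gave 110.4, 128 and 114 CPM in Ctrl and 379, 411 and 363 CPM in LIP, and *Sirpa*, the receptor for CD47, rose by 1.66 ± 0.160 on the log2 scale. *Cd2*, an adhesion molecule of lymphocytes, gave 228, 301 and 236 CPM in Ctrl and 65.5, 73.9 and 71.4 CPM in LIP (log2 fold change -1.86 ± 0.134). *Icam2* (-1.30), *Cd81* (-0.75), *Cd48* (-0.57) and *Cd37* (-0.31) also fell.

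**Figure D4:**
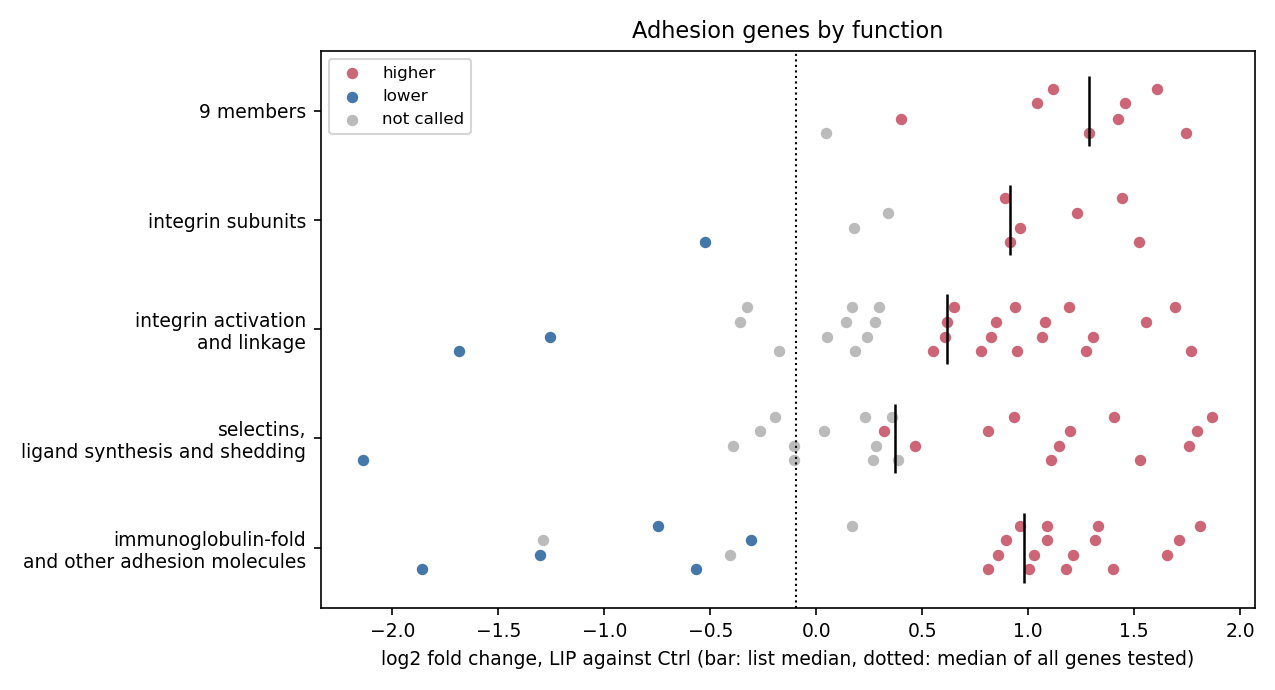
Log2 fold change of LIP against Ctrl (horizontal axis) for each tested gene of the 9 and of the 4 adhesion lists; colours give the edgeR call at an adjusted p under 0.05, bars the list medians, and the dotted line the median of all genes tested. List medians lie between 0.37 and 1.29, and *Tpst1* at -2.14 is the lowest point.

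These values were measured beside large differences in markers of other cells between the groups. Libraries held between 52186555 and 57262379 counts, and no pair within a group agreed within sampling noise. The neutrophil markers *S100a8*, *S100a9* and *Ly6g* were present in all 6 libraries, with *Ly6g* at 18.2 to 19.5 FPKM in Ctrl and 37.8 to 48.3 FPKM in LIP. All 20 mature neutrophil markers were higher in LIP, with a summed FPKM between 16386 and 19720 in Ctrl and between 55851 and 60963 in LIP. Erythroid markers were lower in 8 of 8, from 180637 to 186840 summed FPKM in Ctrl and from 19478 to 20186 in LIP. B cell markers (14 of 14 lower, 3907 to 4193 and 559 to 627) and T cell markers (16 of 16 lower, 340.1 to 369 and 56.2 to 71.2) fell as well. NK cell markers overlapped (243 to 292 and 248 to 272, with 4 of 8 higher and 0 lower), as did those of eosinophils and basophils (11.5 to 17.9 and 17.3 to 20.8, with 2 of 6 higher and 1 lower). T, B and NK cells also transcribe *Itgal*, *Itgb2*, *Itga4*, *Cd44* and *Selplg*, and the part of any of these cells in the results was not tested. In pooled sorted cells, fewer cells of a type and less RNA per cell cannot be told apart.

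**Figure D5:**
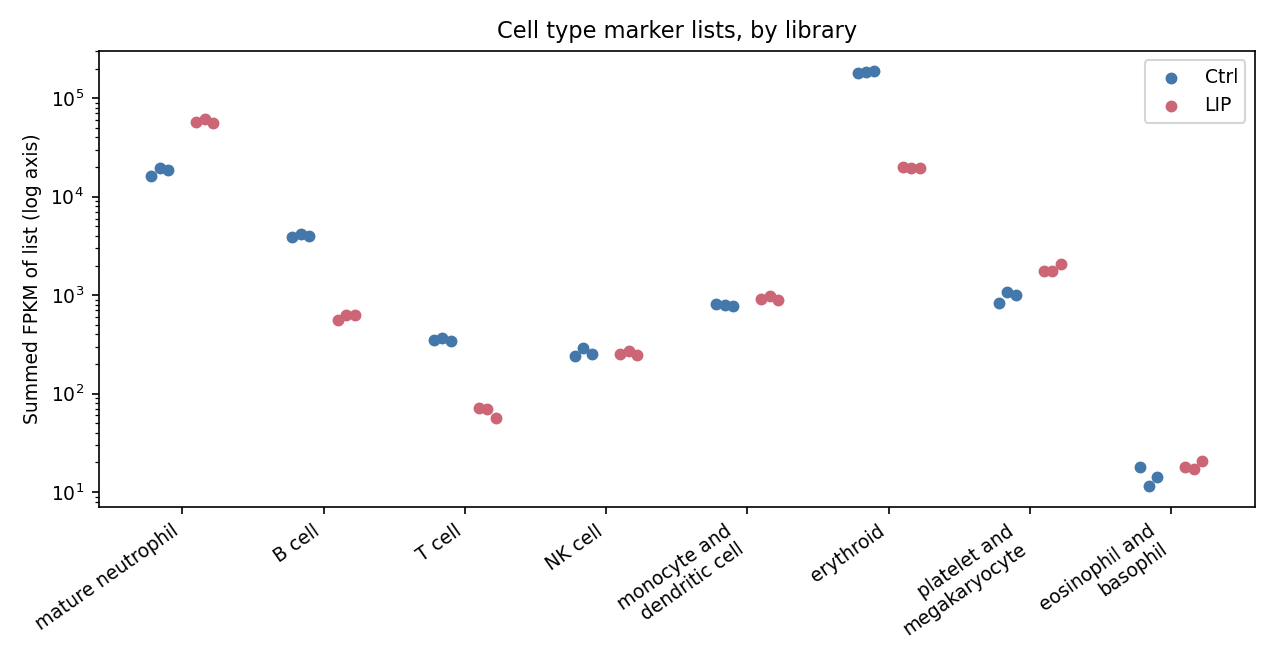
Summed FPKM of each cell type marker list (vertical log axis) in the 3 Ctrl and 3 LIP libraries. Erythroid, B cell and T cell sums are lower in LIP, mature neutrophil and platelet sums are higher, and NK cell sums overlap.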

How the data were processed

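PB neutrophils were sequenced paired-end in 6 Smart-seq2 libraries, 3 per group, grouped by the sample labels. The authors deposited counts, the raw number of reads per gene, and FPKM values, scaled by the authors to gene length and library total. The submitters' processing notes name cutadapt 1.9, FastQC and GRCm38. The aligner, the counting tool and the use of strand are not given in the sources used here. Gene names occur on several rows in 50 cases, none of them among the 9 genes.

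Counts were tested with edgeR 4.0.16 (R 4.3.3) by the quasi-likelihood test after TMM normalization, for genes that averaged 1 FPKM or more, with Benjamini-Hochberg adjustment over all 10440 genes and a threshold of 0.05. Standard errors and 95% intervals come from this fit. The edgeR test was also run on simulated counts with known changes, as many genes raised as lowered. The other scalings, the ratios and the permutation tests were not run on simulated counts. Ratios were compared by two-sided exact permutation tests (scipy 1.17.1). Total counts were 52186555 to 57262379, so that counting error is small, and because reads are PCR copies, sequencing depth does not measure the error between pools. Same-numbered libraries did not pair (correlations 0.021, 0.056 and 0.036).

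The 9 genes, the lists and the marker lists were chosen with earlier results of these data known. The genes named are the 9, up to 3 from each list with the largest absolute log2 fold change among those called that averaged 10 FPKM or more, the 3 nearest to *Itgam*, and markers. A result that this rule names is not reported here. Alternatives were other scalings, filters, DESeq2 1.42.0, limma 3.58.1 on log2(FPKM + 1) and log2(FPKM + 0.1), a replicate block and leaving out each library.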

Additional observations from a re-analysis of the deposited data

How the results depend on the processing

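The 8 rises depend on how libraries are scaled, and the TMM scaling of the main fit takes most genes as unmoved. DESeq2, with its own size factors, also gave 8 higher and 0 lower, beside 28.6% and 27.0% of all genes. Scaling on mature neutrophil genes makes the summed counts of those genes equal across libraries, so that the most abundant of them weigh most. Under it, 0 of the 9 were higher and 8 lower, and 0 of the genes in the 4 lists were higher and 71 lower. Of all genes, 0.345% were higher and 90.1% lower there. Log2 fold changes there were -0.18 for *Itgam*, -0.46 for *Itgb2*, -0.64 for *Itgal*, -0.79 for *Itgax*, -1.87 for *Itga4*, -0.88 for *Itgb1*, -0.31 for *Selplg*, -0.50 for *Cd44*, -1.51 for *Icam1*, -0.37 for *Itgb5*, -0.47 for *Itga2b*, -0.68 for *Itgb3*, -0.14 for *Zyx*, -0.22 for *Pxn*, -0.36 for *Skap2*, -0.13 for *St3gal4*, -0.81 for *St3gal6*, -0.20 for *Jaml* and -0.27 for *Sirpa*. The median of all genes was -2.01 there, -0.42 with library totals and -0.63 with library totals without erythroid genes. With the last, 6 of the 9 were higher and 1 lower, 33 list genes were higher and 25 lower, and *Icam1* was at -0.13. That fit called 13.9% of all genes higher and 49.1% lower. Library totals and limma with pseudocounts of 1 and 0.1 each gave 7 of the 9 higher and 0 lower. Of the list genes, 43, 41 and 40 were higher, and 15 were lower in each. These fits called 18.4%, 19.0% and 17.9% of all genes higher and 39.7%, 40.9% and 39.0% lower.

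*Itga4*, at 0.05 under TMM, also changed sign with library totals (-0.28), with library totals without erythroid genes (-0.49), with limma (-0.24 and -0.25), with a mean FPKM of at least 5 (-0.12), without Ctrl 2 (-0.026) and without LIP 1 (-0.0077), the range over left-out libraries being -0.026 to 0.11. Leaving out each library in turn gave 7 to 8 of the 9 higher and 0 to 0 lower, and 47 to 52 list genes higher and 8 to 12 lower, in fits that called 23.2% to 25.0% of all genes higher and 21.6% to 26.5% lower. *Icam1* was the gene lost, without Ctrl 3, LIP 1 or LIP 3 (edgeR adjusted p = 0.101, 0.0576 and 0.0862). Ratio differences ranged from 0.15 to 0.43 for *Itgam* over *Itgb2*, from -0.29 to 0.016 for *Itgal* over *Itgb2* (0.016 without Ctrl 1), from -0.49 to -0.12 for *Itgax* over *Itgb2* and from -1.14 to -0.89 for *Itga4* over *Itgb1*. As a share of counts, the monocyte and dendritic cell list rose by 0.39 on the log2 scale, against 0.24 in summed FPKM.

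With the replicate block, 8 of the 9 were higher and 0 lower, so that no call among the 9 changed. In that fit 50 list genes were higher and 9 lower, beside 26.1% and 27.0% of all genes. The causes of these shifts were not tested.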
